A study of Paeonia ostii with 18 samples.

Results

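DELLA proteins are the nuclear repressors of gibberellin signalling. The custom tree peony array carried 4 probes that the study's gibberellin gene list names for them, out of 14957 probes in all. They are RGA1 (CUST_10848_PI425249770), RGA2 (CUST_14700_PI425249770), RGL1 (CUST_13587_PI425249770) and GAI (CUST_11249_PI425249770). They were identified by probe name and chosen with earlier results of these data known, and each was followed over the 6 chilling times. The plants were 4-year-old potted *Paeonia ostii* 'Feng Dan Bai', a single cultivar, held in a cold store at 0 to 4 °C. Whole flower buds were taken after 0, 6, 12, 15, 18 and 24 d. The study classed dormancy by the bud break of plants moved to a greenhouse. It took 18 d of chilling as enough to break endo-dormancy. Buds of fewer days were classed as endo-dormant and those of more days as eco-dormant. It also placed 18 d either late in endo-dormancy or early in eco-dormancy. Each time had 3 biological replicates of 3 plants each with 3 buds per plant, and each replicate was hybridized to 1 single-channel array. In whole buds, fewer cells of a type and less RNA per cell cannot be told apart.

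DELLA proteins belong to the GRAS family of plant regulators. In Arabidopsis and rice, gibberellin binds the receptor GID1, the occupied receptor binds a DELLA protein, and the DELLA protein is then marked with ubiquitin and degraded, which frees the growth genes it held back. Much of this control acts on the protein, so transcript signal is only one layer of DELLA activity. In Arabidopsis, RGA and GAI are best known for restraining stem growth and flowering, and RGL1 is one of 3 RGA-like paralogs studied mainly in seeds and flowers. Gibberellin treatment can stand in for part of the cold that tree peony buds need, which is why the pathway is of interest in these buds.

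Probe sequences were not held, so the study's designed RT-PCR primers are shown as the sequences that tie 3 of the names to their transcripts. They are written 5′ to 3′ in the order the study lists them, and capitals mark the one run of 8 bases that primers of different members share.
RGA1, first primer: tggcaatgagtggacgagtgtg
RGA1, second primer: tcaGTGGCGATcaaggttaggc
RGA2, first primer: aaggggctgagcgagttgag
RGA2, second primer: caggcggatGTGGCGATgag
RGL1, first primer: tgttcagcaagataatctcaagttggc
RGL1, second primer: ggtaggggcaggtttcatagaagtg
The shared run lies in the second primers of RGA1 and RGA2. Between RGL1 and the other members the longest shared run was 6 bases. The G+C content was 60.0 and 65.0% in the RGA2 primers, and 40.7% in the first RGL1 primer. Of the probe descriptions held, that of RGA1 names a DELLA-domain GRAS protein of poplar, that of RGL1 an uncharacterized protein of grape, and the names RGA2 and GAI come from the study's list alone. No genome position is given for these probes.

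On the arrays 82.2 to 96.5% of probes were well above background, and correlations between arrays were 0.946 to 0.989. Replicate 3 of 0 d had the lowest share above background, the lowest median intensity (1243) and the lowest 75th percentile (10514.9). Replicate 3 of 24 d had 233 probes left out, and no other array had more than 33. The 18 arrays were spread over 3 slides. On slide 1 were the 0 d and 6 d arrays and the first 2 replicates of 12 d, slide 2 held the last 12 d replicate, all arrays of 15 d and 18 d and the first 24 d replicate, and slide 3 held the other 2 of 24 d. A comparison of a late time with 0 d therefore also compares slides. Each member had 1 spot per array, none of them saturated or flagged. RGA1, RGA2 and RGL1 were well above background on all 18 arrays and GAI on 17.

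The DELLA probes changed in opposite directions during chilling. RGL1 and RGA2 signal rose and RGA1 signal fell, while GAI passed no test. At 18 d RGL1 was 2.90-fold and RGA2 2.06-fold higher than at 0 d, and RGA1 was 1.89-fold lower. Over the 6 times RGL1 (adjusted p = 0.0075, limma moderated F, Benjamini-Hochberg adjusted across the array) and RGA1 (adjusted p = 0.0138) passed the threshold of 0.05, and RGA2 (adjusted p = 0.0735) and GAI (adjusted p = 0.525) did not. By this F, RGL1 stood at rank 10 and RGA1 at rank 80 of 14955 probes. The background of this test was 5.72% of all probes called, against 2 of the 4 members. The study's list marks RGA1, RGA2 and RGL1 as called on these same arrays, so counts of members called are no independent evidence.

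**Figure D1:**
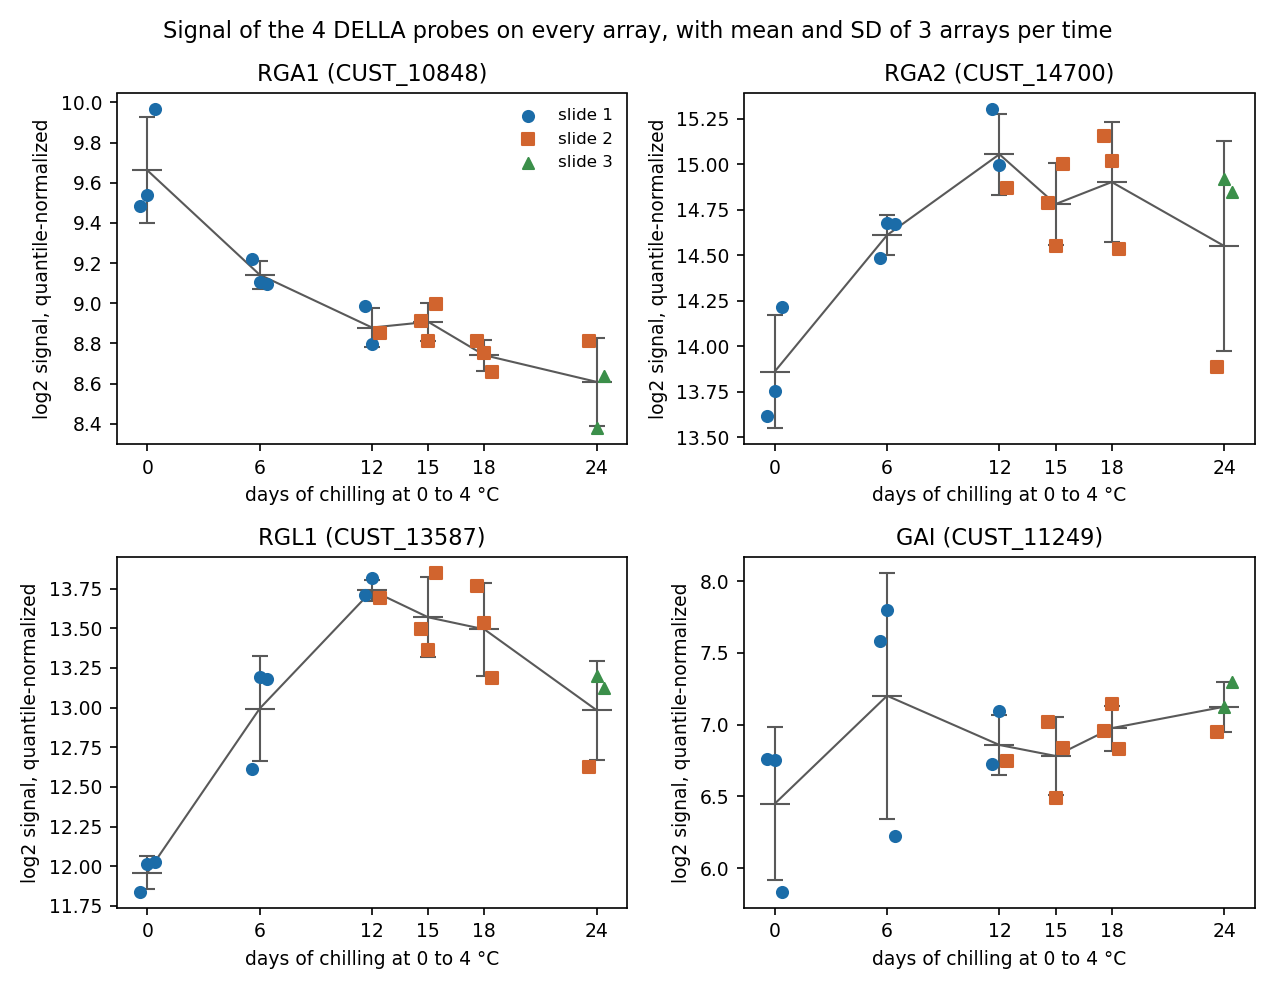
Quantile-normalized log2 signal (vertical axes, each with its own range) of the 4 DELLA probes against days of chilling (horizontal axes). Points are single arrays, with symbols for the 3 slides and small sideways shifts to part the replicates, and lines and bars are the mean and SD of 3 arrays. All 15 chilled arrays lie below the 0 d arrays for RGA1 and above them for RGL1. The share of all probes that separate in this way was not counted.

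RGA1 showed its highest signal before chilling. Its log2 signal was 9.48, 9.54 and 9.97 on the 0 d arrays, 9.22, 9.11 and 9.10 at 6 d, and 8.99, 8.80 and 8.85 at 12 d. It was 8.91, 8.81 and 8.998 at 15 d, 8.81, 8.75 and 8.66 at 18 d, and 8.81, 8.38 and 8.64 at 24 d. Every chilled array lay below every 0 d array, the nearest by 0.26 on the log2 scale. The size of this gap depends on normalization. In processed intensity the 0 d arrays had 711, 682 and 708, and replicate 2 of 12 d had 646. The value of 9.97 was of replicate 3 of 0 d, the array with the lowest share of probes above background. Without that array the RGA1 log2 change was -0.77 at 18 d and -0.90 at 24 d. For this and the other members, the share of all probes with such a separation was not counted. From 0 to 24 d its 6 means were 9.66 ± 0.26, 9.14 ± 0.07, 8.88 ± 0.10, 8.91 ± 0.09, 8.74 ± 0.08 and 8.61 ± 0.22 (SD, n = 3 each). RGA1 signal had thus its lowest mean at the last time, 2.08-fold under that of 0 d. Against 0 d the log2 change (standard error 0.15 throughout) was -0.52 at 6 d (adjusted p = 0.145, limma), -0.78 at 12 d (adjusted p = 0.0212), -0.75 at 15 d (adjusted p = 0.0123), -0.92 at 18 d (adjusted p = 0.00258) and -1.05 at 24 d (adjusted p = 0.0053). The 12 d call depended on 1 array, since without replicate 2 of 12 d its adjusted p was 0.0530, and scaling to the 75th percentile gave a log2 change of -0.47 (adjusted p = 0.132).

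RGA2 moved the other way. Its log2 signal was 13.62, 13.75 and 14.21 at 0 d, 14.48, 14.68 and 14.67 at 6 d, and 15.30, 15.00 and 14.87 at 12 d. It was 14.79, 14.55 and 15.00 at 15 d, 15.16, 15.02 and 14.53 at 18 d, and 13.89, 14.92 and 14.85 at 24 d. On 14 of 15 chilled arrays RGA2 lay above all 0 d arrays, and the exception was replicate 1 of 24 d. From 0 to 24 d its 6 means were 13.86 ± 0.31, 14.61 ± 0.11, 15.06 ± 0.22, 14.78 ± 0.23, 14.90 ± 0.33 and 14.55 ± 0.58 (SD, n = 3 each). RGA2 was highest at 12 d, where its mean was 2.29-fold that of 0 d. The log2 change against 0 d (standard error 0.26) was 1.19 at 12 d (adjusted p = 0.0319, limma) and 1.04 at 18 d (adjusted p = 0.0184), both past the threshold. It was 0.75 at 6 d (adjusted p = 0.205), 0.92 at 15 d (adjusted p = 0.0502) and 0.69 at 24 d (adjusted p = 0.117), none of them past it. Without replicate 1 of 24 d the 24 d change was 1.02 (adjusted p = 0.0218) and the F over the 6 times was called (adjusted p = 0.0299). The 18 d call was lost without replicate 1 or 2 of 0 d or of 18 d (highest adjusted p = 0.0747), and the 12 d call without replicate 1 or 2 of 0 d or of 12 d (highest adjusted p = 0.0942).

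RGL1 had the widest range of means of the 4 probes, 1.78 on the log2 scale. Its log2 signal was 11.84, 12.01 and 12.03 at 0 d, 12.61, 13.19 and 13.18 at 6 d, and 13.71, 13.81 and 13.69 at 12 d. It was 13.50, 13.36 and 13.85 at 15 d, 13.77, 13.53 and 13.18 at 18 d, and 12.63, 13.20 and 13.13 at 24 d. All 15 chilled arrays lay above all 0 d arrays, with a gap of 0.58 on the log2 scale between the groups. Here too the share of all probes was not counted. From 0 to 24 d its 6 means were 11.96 ± 0.10, 12.99 ± 0.33, 13.74 ± 0.07, 13.57 ± 0.25, 13.49 ± 0.29 and 12.98 ± 0.31 (SD, n = 3 each). RGL1 was thus highest at 12 d, at 3.43-fold the 0 d mean. Against 0 d the log2 change (standard error 0.21) was 1.03 at 6 d (adjusted p = 0.0663, limma), 1.78 at 12 d (adjusted p = 0.00638), 1.61 at 15 d (adjusted p = 0.00381), 1.53 at 18 d (adjusted p = 0.00129) and 1.02 at 24 d (adjusted p = 0.0136). The 24 d call was lost without replicate 2 or 3 of 24 d (highest adjusted p = 0.0527).

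GAI had the widest spread between replicates, with a pooled SD of 0.44 on the log2 scale. Its log2 signal was 6.76, 6.75 and 5.83 at 0 d, 7.58, 7.80 and 6.22 at 6 d, and 6.73, 7.10 and 6.75 at 12 d. It was 7.02, 6.49 and 6.84 at 15 d, 6.95, 7.14 and 6.83 at 18 d, and 6.95, 7.12 and 7.30 at 24 d. Replicate 3 of 0 d, with a processed intensity of 33.8, was the 1 array on which GAI was not well above background, and replicate 3 of 6 d had the next lowest normalized log2 signal. From 0 to 24 d its 6 means were 6.45 ± 0.53, 7.20 ± 0.86, 6.86 ± 0.21, 6.78 ± 0.27, 6.97 ± 0.16 and 7.12 ± 0.17 (SD, n = 3 each). GAI overlapped with 0 d at 6, 12 and 15 d. Every array of 18 d and of 24 d lay above all 0 d arrays, the highest of which was 6.76. In all, 11 of 15 chilled arrays lay above all 0 d arrays. At 6, 12, 15 and 24 d the log2 changes of GAI against 0 d were 0.75, 0.41, 0.33 and 0.68 (standard error 0.35, adjusted p between 0.238 and 0.612, limma). At 18 d its log2 change was 0.53 (95% interval -0.22 to 1.27, adjusted p = 0.320, limma), and it was 0.22 without replicate 3 of 0 d. Since the 18 d interval reaches from a small fall to a 2.41-fold rise, whether GAI changed at 18 d was not detectable with these arrays. At 12, 15 and 24 d the 95% interval also spanned both directions. The 6 d interval was 0.01 to 1.49 on the log2 scale, and that change did not pass (adjusted p = 0.314, limma).

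**Figure D2:**
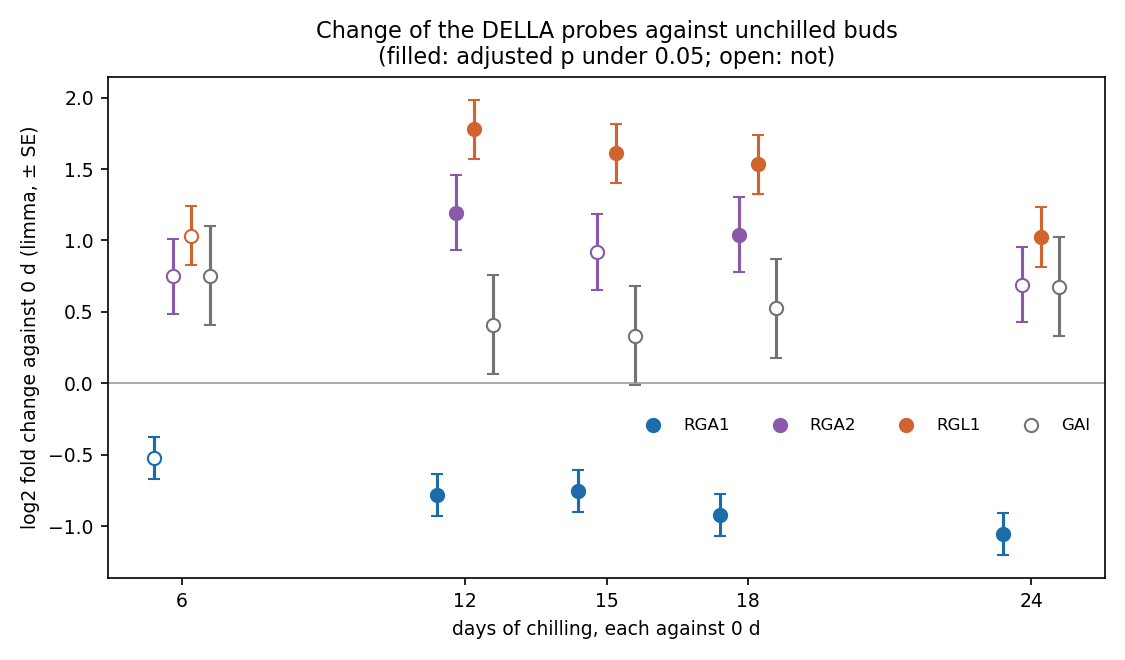
Log2 fold change of each DELLA probe against 0 d (vertical axis) at 6, 12, 15, 18 and 24 d of chilling (horizontal axis), with bars for limma's standard error and small sideways shifts to part the probes. Filled points have an adjusted p under 0.05. RGA1 lies below 0 at every time and the other probes above it, and no point of 6 d is filled.

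Set against all probes, members called and background ran as follows. At 6 d none of the 4 was called and the background was 0.0802%, although all 4 had an unadjusted p under 0.05, as did 2326 probes in all. At 12 d RGL1 and RGA2 were called higher and RGA1 lower, over a background of 3.13%. At 15 d RGL1 was called higher and RGA1 lower (background 6.86%). At 18 d, where the largest share of the array was called (15.8%), RGL1 and RGA2 were higher and RGA1 was lower. At 24 d RGL1 was called higher and RGA1 lower (background 7.74%). These 5 comparisons share the 0 d arrays, so they are not separate tests of one another.

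The course after the first 6 d was then tested. No member passed the F from 6 d on, in which 0.348% of all probes were called. RGL1 came nearest (adjusted p = 0.168, limma), then RGA1 (adjusted p = 0.262). Between neighbouring times no member was called. The background was 0% for 12 d against 6 d, for 15 d against 12 d and for 24 d against 18 d (limma, with 950, 1205 and 1794 probes at an unadjusted p under 0.05) and 0.0201% for 18 d against 15 d. RGL1 had a log2 change of 0.74 at 12 d against 6 d (adjusted p = 0.777, limma) and -0.51 at 24 d against 18 d (adjusted p = 0.340), the second with a 95% interval of -0.95 to -0.07. RGA2 at 24 d against 18 d, where the arrays lie partly on different slides, had -0.35 (adjusted p = 0.677, limma). With slide as a block it had -1.02, a value that rests on replicate 1 of 24 d (13.89), the 1 array of 24 d on slide 2. The 24 d arrays on slide 3 (14.92 and 14.85) do not enter that estimate, and the 18 d mean was 14.90. At 18 d, the time of release, whose arrays share a slide with those of 15 d, RGL1 differed from 15 d by -0.08 (95% interval -0.52 to 0.37), RGA2 by 0.12 (-0.44 to 0.69) and RGA1 by -0.17 (-0.48 to 0.15).

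Released buds of 18 and 24 d were then set against chilled dormant buds of 6, 12 and 15 d, a comparison that leaves out 0 d. RGA1 was lower by 0.30 on the log2 scale with a standard error of 0.09, which did not pass (adjusted p = 0.121, limma, background 1.73%). Scaling to the 75th percentile gave -0.48 with an adjusted p of 0.0382. For RGL1 the difference was -0.20 (adjusted p = 0.487), for RGA2 -0.09 (adjusted p = 0.838) and for GAI 0.10 (adjusted p = 0.858), and with no normalization these 3 changed sign, at 0.09, 0.15 and -0.01.

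The times were also ordered by the means of these same arrays. Neighbours in such an order are picked by the values tested, so a pair that does not pass says little about the order. Ordered by mean signal, RGL1 ran from 12 d through 15, 18, 6 and 24 d down to 0 d. Of these neighbours only 24 d and 0 d differed past the threshold (adjusted p = 0.0136, limma), which is the comparison already given. RGA2 had the order 12, 18, 15, 6, 24 and 0 d, with no neighbours past the threshold and an adjusted p of 0.117 for the last pair. For RGA1 the order was 0, 6, 15, 12, 18 and 24 d, and the first pair had an adjusted p of 0.145. GAI had the order 6, 24, 18, 12, 15 and 0 d, and all its adjusted p-values between neighbours were 0.612 or more.

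Slide was then fitted as a fixed block, which parts slide from time only in part. The shift between slides 1 and 2 rests on the 1 array of 12 d on slide 2. That between slides 2 and 3 rests on the 1 array of 24 d on slide 2. Here and below, calls kept or lost with slide as a block therefore hang on these single arrays. For RGL1 at 18 d against 0 d the standard error was 0.35 with the block and 0.21 without it. With slide as a fixed block, RGL1 still passed over the 6 times (adjusted p = 0.0282, limma), and RGA1 (adjusted p = 0.168), RGA2 (adjusted p = 0.0766) and GAI (adjusted p = 0.752) did not, over a background of 0.395%. For 18 d against 0 d, where the block called 0.334% of probes, the log2 changes kept their direction at 1.60 ± 0.35 for RGL1, 1.32 ± 0.36 for RGA2 and -0.88 ± 0.26 for RGA1 (± standard error), with adjusted p-values of 0.073, 0.118 and 0.137. Slide 1 alone allowed a comparison that crosses no slide, of the 5 arrays of 6 d and 12 d with the 3 of 0 d. There RGL1 was higher by 1.42 on the log2 scale (standard error 0.18, adjusted p = 0.114, limma) and RGA2 by 1.02 (standard error 0.18, adjusted p = 0.127). RGA1 was lower, at -0.64 (standard error 0.16, adjusted p = 0.156), and GAI had 0.61 (standard error 0.42, adjusted p = 0.493). That fit called 0% of all probes, with 2580 at an unadjusted p under 0.05. The 12 d arrays straddled the slides, and the slide 2 array lay near the slide 1 mean for RGA1 (8.85 and 8.89), RGL1 (13.69 and 13.76) and GAI (6.75 and 6.91), and somewhat lower for RGA2 (14.87 and 15.15). Of the 24 d arrays, the one on slide 2 lay below the mean of those on slide 3 for RGA2 (13.89 and 14.89) and RGL1 (12.63 and 13.16), and above it for RGA1 (8.81 and 8.51).

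That the members differ in their response was tested on the difference between 2 probes within each array, over all 6 pairs, comparing the 15 chilled arrays with the 3 of 0 d by an exact permutation test (two-sided, smallest possible p = 0.00123, Benjamini-Hochberg adjusted over the 6 pairs). The change of RGA1 was below that of RGL1 by 2.20 on the log2 scale (p = 0.00123, adjusted p = 0.00368, exact) and below that of RGA2 by 1.73 (p = 0.00123, adjusted p = 0.00368, exact). It also differed from that of GAI, by -1.35 (p = 0.00368, adjusted p = 0.00735, exact), and by -0.89 (adjusted p = 0.0331, exact) without replicate 3 of 0 d, on which GAI was not well above background. RGA2 and RGL1 moved the same way by unequal amounts, RGA2 less by 0.48 (p = 0.00613, adjusted p = 0.00919, exact), a call lost without replicate 3 of 0 d (-0.34, adjusted p = 0.0588, exact). RGL1 exceeded GAI by 0.86 (p = 0.0404, adjusted p = 0.0485, exact), but this call was lost on leaving out any 1 of 12 arrays (highest adjusted p = 0.265, exact, without replicate 1 of 0 d), and the difference was 1.20 without replicate 3 of 0 d. The difference between RGA2 and GAI, 0.38, did not pass (p = 0.330, exact), and it was 0.86 without that array (adjusted p = 0.0588, exact) and 0.10 without replicate 1 of 0 d. Chilled arrays of later times lie on other slides than the 0 d arrays. On slide 1 alone, with 5 against 3 arrays, RGA1 differed from RGL1 by -1.96 and from RGA2 by -1.58 (both p = 0.0179, exact permutation test, the smallest possible, adjusted p = 0.0536). The other differences there were -1.26 for RGA1 and GAI, -0.38 for RGA2 and RGL1 and 0.70 for RGL1 and GAI, each in the same direction as over all arrays. Between 18 d and 0 d, 3 against 3 arrays cannot give a p below 0.1, and 5 of the 6 pairs reached that value.

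RGA2 and RGL1 also varied together from array to array. Over the 18 arrays their signals had a Pearson correlation of 0.91 (Spearman 0.89), and 0.82 over the 15 chilled arrays. After the mean of each time was taken out it was 0.79, so replicates high in one probe tended to be high in the other. The arrays share chilling time, slide and normalization, so the 18 points are not independent. Among the 10979 probes compared, RGL1 was the one most like RGA2, and RGA2 ranked second for RGL1. RGA1 ran against RGL1 over all arrays (Pearson -0.70), but within the chilled arrays the correlation was -0.09, and with RGA2 it was -0.58 and -0.10. Correlations of GAI with the other members were at most 0.44 in size.

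**Figure D3:**
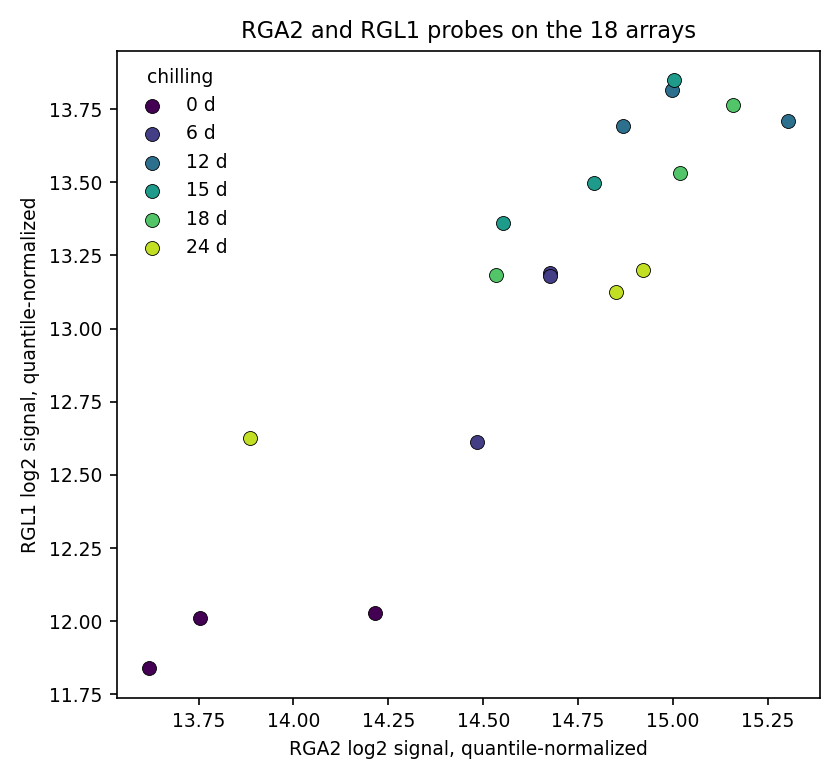
RGL1 log2 signal (vertical axis) against RGA2 log2 signal (horizontal axis) on each of the 18 arrays, coloured by days of chilling. The 0 d arrays lie at the lower left, and replicate 1 of 24 d lies apart from the other 24 d arrays, low in both probes.

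The probes most like each member were taken from those well above background on all 18 arrays that carry a protein name. Of the 10979 probes compared, 1026 carried one (1027 of 10980 for GAI). Most of these names come from the study's tables of genes it called on these same arrays. Likeness of a named probe to a member that changed therefore has no independent weight. For RGL1, after RGA2, these were SAL1 (Pearson 0.90), known in Arabidopsis as a phosphatase of stress signalling, and MAB1 (0.90), a subunit of mitochondrial pyruvate dehydrogenase. MAB1 also ranked high for RGA2 (0.87), followed by VTC4 (0.82), an enzyme of ascorbate synthesis. Of the named probes RGA1 was nearest to 1 similar to inositol polyphosphate 5-phosphatase (CUST_8881, 0.87), to phospholipase D delta (PLDDELTA, 0.86) and to the dehydrin ERD14 (0.86). Among all probes compared these ranked 15, 17 and 22 for RGA1. SAL1 and MAB1 ranked 9 and 10 for RGL1, and MAB1 and VTC4 ranked 7 and 21 for RGA2. Within times the likeness of RGA1 and PLDDELTA was 0.09, that of RGA1 and CUST_8881 was 0.61 and that of RGL1 and SAL1 was 0.51. For GAI the highest correlation with any probe was 0.79, and the nearest named ones were a zinc finger protein (CUST_9347, 0.64), a proteasome subunit similar to RPN5b (CUST_14895, 0.60) and the citrate synthase ATCS (0.59). Among all probes compared these ranked 25, 47 and 62 for GAI. Over the 15 chilled arrays their correlations with GAI were 0.66, 0.25 and 0.39. Without the 2 arrays farthest from the GAI median, that of CUST_14895 was 0.35. In all, 124 probes had a correlation above 0.8 with RGL1, 91 with RGA1, 44 with RGA2 and 0 with GAI.

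The 47 other probes of the study's gibberellin list were followed beside the DELLA probes. Over the 6 times 4 of 47 were called (8.51%, over the background of 5.72%), and for 18 d against 0 d 7 of 47 (14.9%, over 15.8%), 3 higher and 4 lower. Their median log2 change at 18 d was -0.03, beside 0.05 for all probes. The median of the 4 members was 0.78, but it spans both directions and marks no common shift (RGL1 1.53, RGA2 1.04, GAI 0.53 and RGA1 -0.92). The study's list marks genes that it called on these same arrays, and its counts are therefore no independent evidence.

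Of the receptors and regulators, GID1A, a gibberellin receptor, fell at 18 d by 0.77 on the log2 scale (standard error 0.24, adjusted p = 0.0409, limma), with means of 14.68 ± 0.48 at 18 d and 15.46 ± 0.33 at 0 d (SD, n = 3 each). With slide as a block its adjusted p was 0.154. The second receptor GID1B had -0.81 (adjusted p = 0.149), and SPY, which in Arabidopsis modifies DELLA proteins with a sugar, had -0.29 (adjusted p = 0.277). The 2 probes of the chromatin remodeller PKL had -0.47 (CUST_5037, adjusted p = 0.158) and 0.41 (CUST_5859, adjusted p = 0.495). Thus 1 of these 5 probes passed at 18 d (20%, over the background of 15.8%), and none over the 6 times (background 5.72%).

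Of the 3 metabolic enzymes, GA2OX8, which inactivates gibberellins, fell at 18 d by 1.14 on the log2 scale (standard error 0.25, adjusted p = 0.0107, limma), with means of 10.47 ± 0.37 at 18 d and 11.61 ± 0.07 at 0 d (SD, n = 3 each). Its course was uneven, with means of 10.46 at 6 d, 11.25 at 12 d and 11.22 at 24 d. With slide as a block its adjusted p for 18 d was 0.227. GA20OX, a late enzyme of gibberellin synthesis, had 1.06 at 18 d (adjusted p = 0.190, limma), and GA2, an early enzyme of the pathway, had 0.62 (adjusted p = 0.194).

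Among the 38 further signalling and response probes, 5 passed at 18 d (13.2%, over the background of 15.8%). PEX11, a peroxisome division protein (0.52), the leaf patterning regulator AS1 (0.55) and the MYB-like protein AT1G70000 (1.07) were higher than at 0 d, and BT4 (-0.93) was lower (log2 changes, limma). The calcium-dependent kinase CDPK1 was at least 12.6-fold lower (adjusted p = 0.00794), with no 18 d array well above background, so that this is a bound set by the lowest signals called well above background. With slide as a block AT1G70000 kept its 18 d call (adjusted p = 0.0443, limma), and PEX11 (adjusted p = 0.331), AS1 (0.296), BT4 (0.446) and CDPK1 (0.121) did not. Over the 6 times CDPK1 (adjusted p = 0.0457, limma), the flowering regulator AGL20 (adjusted p = 0.037) and the SNRK2.3 probe CUST_11019, a kinase of abscisic acid signalling (adjusted p = 0.0298), passed together with GA2OX8 (adjusted p = 0.0457). None of these 4 passed with slide as a block, with adjusted p-values of 0.124 for CDPK1, 0.892 for AGL20, 0.101 for CUST_11019 and 0.160 for GA2OX8. AGL20 had log2 means of 12.05, 12.43, 12.52, 13.82, 13.61 and 14.70 from 0 d to 24 d, and it was higher at 24 d by 2.65 (adjusted p = 0.0134, and 0.765 with slide as a block). None of the 47 passed at 6 d or 15 d against 0 d, so at 15 d RGL1 and RGA1 were the 2 called probes of the list.

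**Figure D4:**
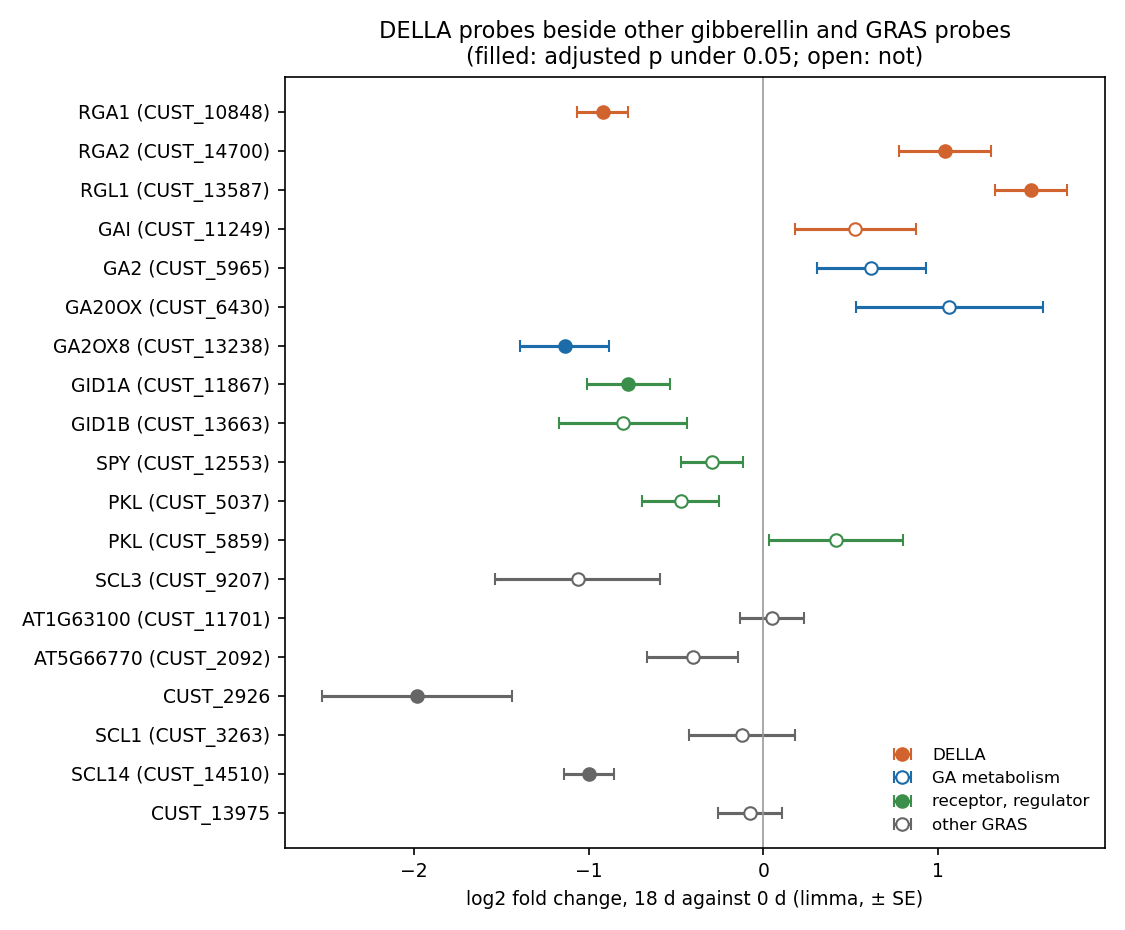
Log2 fold change at 18 d against 0 d (horizontal axis, bars for limma's standard error) for the 4 DELLA probes, the gibberellin enzymes, the receptors and regulators, and 7 other GRAS probes (rows). Filled points have an adjusted p under 0.05. RGA2 and RGL1 are the only filled points to the right of 0, and RGA1, GA2OX8, GID1A, SCL14 and CUST_2926 are filled to the left of it.

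The rest of the GRAS family was followed as a set of relatives of the DELLA probes. Of 7 further GRAS probes with a description held, 2 passed at 18 d against 0 d, both lower, beside the background of 15.8%. SCL14, which in Arabidopsis takes part in detoxification, fell by 1.0 on the log2 scale (standard error 0.14, adjusted p = 0.0017, limma), with means of 6.51 ± 0.31 at 18 d and 7.51 ± 0.03 at 0 d (SD, n = 3 each). CUST_2926, similar to a GRAS protein of poplar, fell by 1.98 on the log2 scale (standard error 0.54, adjusted p = 0.0263). With slide as a block CUST_2926 kept its 18 d call (adjusted p = 0.0439, limma) and SCL14 lost it (adjusted p = 0.138). SCL3, in Arabidopsis an antagonist of DELLA proteins, had -1.06 (adjusted p = 0.140) and was well above background on 9 arrays only. The remaining probes, AT5G66770, SCL1 and CUST_13975, had -0.41, -0.12 and -0.08. Most of them were found in tables of genes that the study called on this same material, so their number has no independent weight.

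A second probe bears the RGL1 name in its description and has to be kept apart from the RGL1 member. CUST_11701 is described as a putative DELLA protein RGL1 of castor bean, while its Arabidopsis match is AT1G63100, a GRAS protein that is not one of the Arabidopsis DELLA genes. Its log2 means were 6.98, 7.07, 6.48, 6.54, 7.02 and 6.10 from 0 d to 24 d. At 18 d it stood 0.05 from 0 d (adjusted p = 0.890, limma) while the RGL1 member stood 1.53 above it. At 24 d CUST_11701 was lower than at 0 d by 0.88 (adjusted p = 0.0165, and 0.456 with slide as a block), where the RGL1 member was higher by 1.02. The 2 probes bearing the name thus took different courses.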

How the data were processed

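Per the file headers, Agilent Feature Extraction 10.5.1.1 produced the deposited scanner intensity values, background-subtracted within each array and not normalized between arrays. The deposited value table gives log2 values, quantile-normalized in GeneSpring by the authors, for 14949 probes. Its columns had correlations of at least 0.9998 with the values computed here, and it served as an alternative. From the intensities, log2 was taken, non-uniform and outlier spots were left out, repeat spots were averaged by probe, and quantile normalization was then applied to the 18 arrays. The depth is set by the array signal, with 75th percentiles of 10514.9 to 16990.8, and the number of arrays limits the precision.

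Each time had its own mean in a linear model of the 18 arrays, fitted with limma 3.58.1 and, for random blocks, statmod 1.5.0. R was version 4.3.3 and jsonlite was 2.0.0. Adjusted p-values are Benjamini-Hochberg over all probes, with a threshold of 0.05. SD values are over 3 arrays and standard errors are limma's. The model was tested on simulated data. The replicate numbers did not pair the arrays. Pair differences used exact permutation tests.

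The members and gene lists were chosen with earlier results of these data known. Named genes are the 4 members, the GRAS list, the gibberellin enzymes, receptors and regulators, other gibberellin probes called over the 6 times or at 18 d against 0 d, and the 3 named probes most correlated with each member. Probe names come from the study's supplementary tables, held in part, and rest on matches to other species. The alternatives were other scalings, background correction, flagged spots, a filter on dim probes, slide and replicate blocks, other priors, tests and samples, and each array left out in turn.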

Additional observations from a re-analysis of the deposited data

How the results depend on the processing

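At 12, 18 and 24 d the signs against 0 d of RGA1, RGA2 and RGL1 were the same under every alternative run. The deposited value table, flagged spots kept, a filter on dim probes, a trended and robust prior, slide as a random block (correlation within slides 0.05) and the methods' ANOVA with adjustment changed no call of a member over the 6 times or, where they give one, at 12, 18 and 24 d. Scaling to the 75th percentile gave a median of all probes of 0.16 on the log2 scale at 12 d against 0 d, where the main scaling gave 0.02, and leaving out normalization gave 0.28 at 18 d, where it was 0.05, so member changes under these scalings are to be read against those shifts.

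Over the 6 times, RGA1 had an adjusted p of 0.112 with no normalization and 0.168 with slide as a fixed block, each leaving 1 member called. RGA2 passed with a normexp background correction (0.0346), with the unadjusted p (0.00732) and with the methods' ANOVA unadjusted (0.0117). Fitting slide as a fixed block left 0 members called at 15, 18 and 24 d against 0 d, with 18 d values of -0.88, 1.32 and 1.60 for RGA1, RGA2 and RGL1. No normalization left 1 member called at 12 d and 1 at 15 d. A fit to only the arrays compared left 0 at 12 d, 1 at 15 d, 0 at 24 d, and RGA2 at 18 d with 1.04 (adjusted p = 0.0523). Normexp called 1 member at 6 d. At 15 d, 3 members were called with normexp, the filter on dim probes, the trended and robust prior or the unadjusted p, where 2 were called in the report. Unadjusted p called 4 at 6 d, 2 from 6 d on, 1 at 12 d against 6 d, 1 at 24 d against 18 d and 1 for 18 and 24 d against 6, 12 and 15 d, where the 75th percentile also called 1. In that comparison the 75th percentile turned GAI to -0.26, and no normalization turned GAI to -0.0052, RGA2 to 0.153 and RGL1 to 0.0851. On slide 1 alone, an alternative chosen after seeing the data, the differences of RGA1 and RGA2 (-1.58), RGA1 and RGL1 (-1.96), RGA1 and GAI (-1.26), RGA2 and RGL1 (-0.38) and RGL1 and GAI (0.70) no longer passed, in a design whose smallest p of 0.0179 (exact) becomes 0.0536 after adjustment over the 6 pairs. The cause of these changes was not tested.

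Leaving out each array in turn, the adjusted p over the 6 times ranged over 0.0132 to 0.0373 for RGA1, 0.0299 to 0.208 for RGA2, 0.0038 to 0.0350 for RGL1 and 0.0966 to 0.773 for GAI, with 2 to 3 members called. The 18 d change ranged over -1.01 to -0.77 for RGA1, 0.91 to 1.23 for RGA2, 1.40 to 1.69 for RGL1 and 0.22 to 0.68 for GAI, again with 2 to 3 called. Members called ranged from 0 to 1 at 6 d (1 without replicate 1 of 6 d or of 24 d), 1 to 3 at 12 d (1 without replicate 2 of 12 d), 1 to 3 at 15 d (1 without replicate 2 of 15 d) and 1 to 3 at 24 d (1 without replicate 2 or 3 of 24 d, 3 without replicate 1). For 18 and 24 d against 6, 12 and 15 d, RGA2 ranged over -0.181 to 0.0778, with its sign turned without replicate 3 of 18 d or replicate 1 of 24 d, and GAI over -0.0604 to 0.203, turned without replicate 3 of 6 d. The pair differences, left out in the same way after the data were seen, ranged over -1.79 to -1.68 for RGA1 and RGA2, -2.29 to -2.08 for RGA1 and RGL1, -1.59 to -0.89 for RGA1 and GAI, -0.56 to -0.34 for RGA2 and RGL1, 0.10 to 0.86 for RGA2 and GAI and 0.64 to 1.20 for RGL1 and GAI, and the last lost its call without any 1 of 12 arrays.

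With the replicate block, RGA2 at 12 d kept its change of 1.19 with an adjusted p of 0.0508, 398 probes in place of 856 were called over the 6 times, and no other member call over the 6 times or at 12, 18 and 24 d changed. Deviations of arrays with the same number had mean correlations of -0.02 to -0.01, against 0.01 for other numbers, and 6 of 18 arrays lay nearest their own number, so the numbers do not pair the samples.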
